A study of Homo sapiens with 7 samples.

Results

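The genes described here encode the nuclear pore complex and the carriers that pass through it: nucleoporins, importins, transportins, exportins, Ran and Ran-binding proteins. They were matched by gene symbol, by a rule drawn up with earlier results of these data known, in a deposited table of 63655 genes, on chromosomes 1 to 22 and X, and 48 genes matched. Of these, 46 were tested by the authors; NUP210L and KPNA7 were not. The cells were HEK293, a human embryonic kidney line, and every sample carried CNBP with a FLAG-HA tag. CNBP is a small protein of zinc knuckles with a preference for G-rich RNA and DNA. The labels give 3 control knockdown samples and 4 CNBP knockdown samples of total RNA and do not say whether they came from separate cultures. The knockdown samples are numbered at 2 levels (1 or 2, each with a 1 and a 2) and may be repeats of fewer units, so the p-values may measure technical spread. Each gene has 1 FPKM (fragments mapped per kilobase of a transcript, relative to library size) under each of the 2 headings, OE and siRNA. The siRNA condition was taken as CNBP knockdown from its heading and the series design; the labels do not explain OE or tie it to samples. If OE cells overexpressed CNBP, each difference below would hold both effects at once. Values per sample are not given, so there is no SD or n, depth is unknown, and p-values and q-values are those of the authors' Cuffdiff comparison.

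Nuclear pores are built from stacked rings of scaffold nucleoporins that hold a channel filled with flexible chains rich in phenylalanine and glycine (FG repeats). Import and export receptors bind cargo on one side of the envelope, move through this mesh and let the cargo go on the other side. The small GTPase Ran sets the direction, because Ran bound to GTP is concentrated in the nucleus, where it releases import cargo and loads export cargo. Importin alpha proteins are adaptors that join classical nuclear localisation signals to importin beta, and most other receptors bind their cargo directly.

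The targeted gene, CNBP, had 579.8 FPKM in OE and 45.5 in siRNA, 12.7-fold lower, with q = 0.00791 in the authors' deposited table. Of the fixed markers of this line, VIM stood at 398 and 413 FPKM, KRT8 at 74.7 and 69.4 FPKM and KRT18 at 34.5 and 25.03 FPKM. PAX2 and GATA3, from the same marker set, were low, at 3.43 and 3.71 FPKM and at 5.49 and 4.90 FPKM. Of the neurofilament genes, NEFL was called higher, at 35.9 FPKM in OE and 64.7 in siRNA with q = 0.00791 in the authors' deposited table, and NEFM, at 0.262 and 0.277 FPKM, was not tested. The blood and liver markers PTPRC, CD3E, HBB, ALB and APOA1 all lay at or under 0.125 FPKM. The fibroblast and muscle markers were mixed. ACTA2 stood at 21.1 FPKM in OE and 12.5 in siRNA and COL1A1 at 6.60 and 4.79 FPKM, neither called, and MYH7 was near 0. In bulk RNA, fewer cells of a type and less RNA per cell cannot be told apart.

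No gene of the transport machinery was called as different between the conditions by the authors' test. At a q-value under 0.05 in the authors' deposited Cuffdiff table, 0 of 46 tested members were called, where 1.35% of all 24822 tested genes were (0.572% higher and 0.782% lower in siRNA). That share of 46 genes comes to fewer than 1, so the count of 0 lies near the background and is no result about these genes. At a q-value under 0.1, 2 members were called higher, KPNA3 and KPNA5 (4.35%, against 0.967% of all tested genes), and 0 lower. At an unadjusted p under 0.05, 8 members stood higher in siRNA and 0 lower. The same threshold was passed by 4.51% of all tested genes in the higher and 6.41% in the lower direction, against 17.4% and 0% of the members. Among the 10457 tested genes averaging 10 FPKM or more, a level that all 46 tested members exceed, it was passed by 6.87% in the higher and 4.23% in the lower direction. The 8 genes were KPNA3, KPNA5, RAN, NUP153, XPO4, TNPO1, NUP35 and KPNA1.

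The direction was uneven. In siRNA, 36 of the 46 tested members (78.3%) had the higher value and 10 the lower, against 58.2% higher among all tested genes averaging 10 FPKM or more. Rescaling both conditions to the same total raises the siRNA values relative to those of OE. The split of the members became 39 to 7 (84.8% higher). The share of those expressed genes with the higher value in siRNA became 65.7%, and their median change 0.15. The median change of the members was 0.21 on the log2(FPKM + 1) scale, with the middle part of the list between 0.04 and 0.42 (quartiles), and that of the 10457 genes was 0.08. The extremes were KPNA3 at 1.00 and TPR at -0.55. The nucleoporins matched by the rule had a median of 0.08 over 21 tested genes, the same as those expressed genes, with 14 higher and 7 lower. The importins and exportins matched by the rule had a median of 0.34 over 22 tested genes, with 19 higher and 3 lower. Nucleoporins and receptors with symbols outside the rule do not enter these figures. The difference between these groups was not tested.

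**Figure D1:**
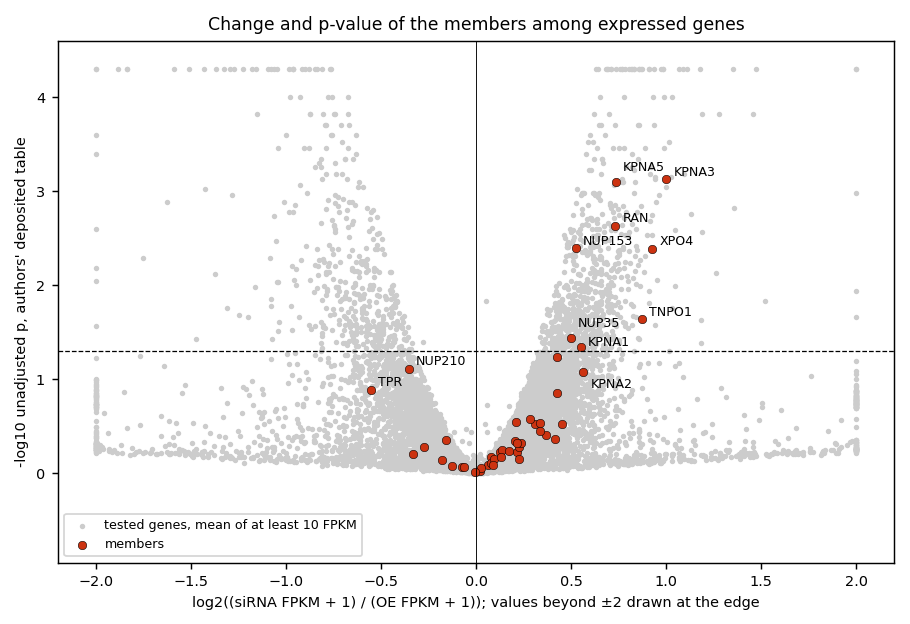
Change of each gene between the conditions on the log2(FPKM + 1) scale (horizontal axis) against -log10 of the unadjusted p in the authors' deposited table (vertical axis). Each grey point is a tested gene averaging 10 FPKM or more and each red point is a member; above the dashed line (p under 0.05) lie 8 members, all on the side higher in siRNA.

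The size of the folds bears on how to read the missing calls. Among the 8068 tested coding genes averaging 10 FPKM or more, the 123 called genes differed by at least 1.53-fold, with a median of 1.82-fold. Of the tested members 5 (10.9%), KPNA3, KPNA5, RAN, TNPO1 and XPO4, stood 1.5-fold or more apart, all higher in siRNA, and no member stood that far lower. In the coding background 523 genes (6.48%) stood that far higher, and 66 of those (12.6%) were called. Another 341 (4.23%) stood that far lower, a share that comes to few genes in a list of this size. Of the 29 coding genes that stood 2-fold or more higher, as KPNA3 did, 15 (51.7%) were called. Folds of 1.5 to 2 were thus mostly not called in this table, and the missing calls do not show that the members were unchanged.

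The members with the smallest p that have a promoter sequence in the RefSeq table are KPNA3 and RAN, and TPR is the member with the lowest value in siRNA relative to OE. Their promoters are shown to set the sequence beside these opposite values. Each runs 5' to 3' on the gene's strand from 250 bases before to 50 bases after the RefSeq start (GRCh38.p14), and capitals mark the E-box CACGTG, a palindrome bound by basic helix-loop-helix proteins. KPNA3 lies at chr13:49792633-49792932 on the minus strand, RAN at chr12:130871816-130872115 on the plus strand and TPR at chr1:186375204-186375503 on the minus strand.
KPNA3: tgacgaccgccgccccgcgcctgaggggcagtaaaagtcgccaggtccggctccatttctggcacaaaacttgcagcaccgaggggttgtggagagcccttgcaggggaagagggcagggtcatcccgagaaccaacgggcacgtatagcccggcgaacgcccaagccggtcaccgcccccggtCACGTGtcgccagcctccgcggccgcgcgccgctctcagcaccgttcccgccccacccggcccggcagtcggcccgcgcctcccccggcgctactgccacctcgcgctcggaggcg
RAN: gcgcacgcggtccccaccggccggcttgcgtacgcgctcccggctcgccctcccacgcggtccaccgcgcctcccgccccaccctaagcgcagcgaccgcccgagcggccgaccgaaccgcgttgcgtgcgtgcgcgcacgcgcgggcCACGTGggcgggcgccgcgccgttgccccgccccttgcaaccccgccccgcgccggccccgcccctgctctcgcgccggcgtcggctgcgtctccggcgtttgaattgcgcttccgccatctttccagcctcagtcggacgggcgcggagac
TPR: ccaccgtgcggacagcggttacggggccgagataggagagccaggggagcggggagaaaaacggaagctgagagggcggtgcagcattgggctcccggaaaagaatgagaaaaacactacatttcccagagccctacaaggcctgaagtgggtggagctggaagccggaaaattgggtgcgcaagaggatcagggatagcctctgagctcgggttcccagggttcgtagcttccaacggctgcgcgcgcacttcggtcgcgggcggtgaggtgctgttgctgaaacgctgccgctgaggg

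The E-box begins 66 bases before the start site of KPNA3 and 102 bases before that of RAN, and the TPR window holds none. Windows were given for 41 of the 48 members, 53 windows in all. The E-box stood in 8 of these windows (15.1%), in IPO4, IPO7, KPNA3, NUP188, NUP50, RAN, TNPO2 and XPO1, and in 7.26% of all 35116 windows of that length. The CCAAT box, read on both strands, stood in 26 of the member windows (49.1%) and in 34.6% of all. The 3 windows printed hold 72.0%, 78.3% and 61.3% GC; the member windows had a median of 62.7% and all windows 58.7%. Members with the E-box include IPO4 and NUP188, which had lower values in siRNA, as well as KPNA3 and RAN. XPO4, TNPO1 and NUP35, all with higher values in siRNA, had windows without the E-box. A match says nothing of which factor binds.

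**Figure D2:**
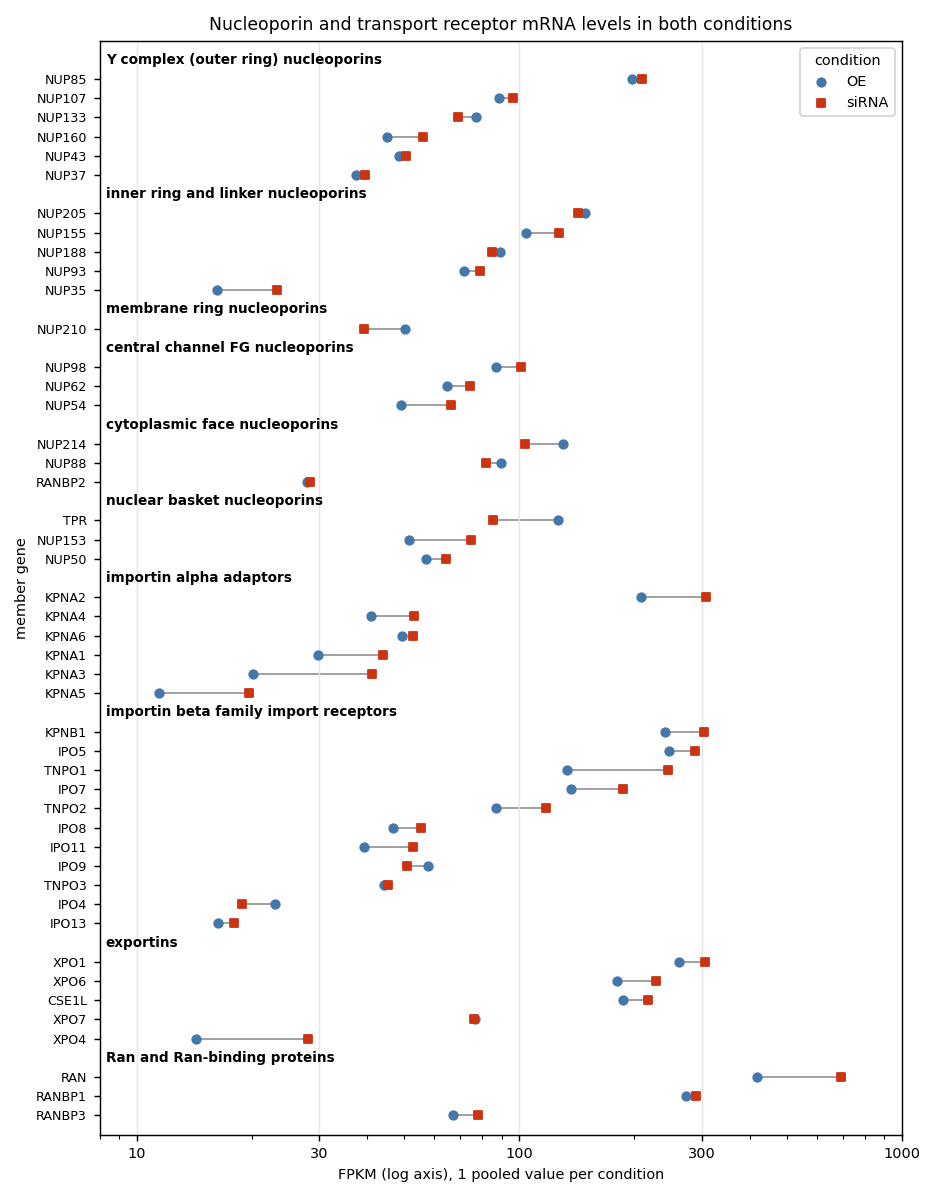
FPKM of the 46 tested members in OE (blue circles) and siRNA (red squares) on a log axis, 1 pooled value per condition, grouped by role. The widest spans belong to KPNA3, XPO4 and TNPO1, and in NUP85, NUP43 and NUP37 of the Y complex the points nearly coincide.

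Among scaffold nucleoporins, the Y complex forms the outer rings on both faces of the pore and also sits at kinetochores in mitosis. Of the genes matched here, the 6 tested ones of this complex (NUP37, NUP43, NUP85, NUP107, NUP133 and NUP160) had a median change of 0.08. Their summed level was 494 FPKM in OE and 520 FPKM in siRNA. Subunits with symbols outside the rule do not enter these figures. NUP85 was the most abundant, at 197 and 209 FPKM. NUP107, on which NUP133 docks, stood at 88.3 and 96.2 FPKM. NUP133 itself, at 77.1 and 69.0 FPKM, was the only one of the 6 with a lower value in siRNA. NUP160 had the largest ratio of the 6, from 45.1 to 56.1 FPKM, with p = 0.297 in the authors' deposited table. NUP43 stood at 48.4 and 50.6 FPKM, and NUP37 at 37.4 and 39.5 FPKM, so these 2 beta-propeller subunits had nearly equal values in both conditions. None of the 6 had an unadjusted p under 0.05.

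In the inner ring, which anchors the channel, only the least abundant gene, NUP35, had an unadjusted p under 0.05. NUP205 stood at 149 and 142 FPKM and its paralog NUP188 at 89.2 and 84.8 FPKM; both differences turn to the higher side when the conditions are rescaled to the same total. NUP93, which recruits the channel nucleoporins, stood at 71.7 and 79.0 FPKM, and NUP155 at 104 and 127 FPKM. NUP35, a linker that contacts the pore membrane, stood at 16.2 FPKM in OE and at 23.3 in siRNA, 1.44-fold higher, with p = 0.0364 and q = 0.389 in the authors' deposited table. The membrane glycoprotein NUP210 stood at 50.3 and 39.2 FPKM, 1.28-fold lower in siRNA, with p = 0.0771 in the authors' deposited table. Its paralog NUP210L, best known from testis, was near 0 at 0.330 and 0.250 FPKM and was not tested.

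Channel and cytoplasmic face nucleoporins had small differences in both directions. The 3 FG nucleoporins of the central channel had higher values in siRNA: NUP98, a frequent fusion partner in leukaemia, stood at 87.1 and 101 FPKM. NUP62 stood at 64.6 and 74.5 FPKM, and its partner NUP54 at 49.0 and 66.2 FPKM, with p = 0.0581 in the authors' deposited table. At the cytoplasmic face, where exported mRNPs are released, NUP214 stood at 130 and 104 FPKM and its partner NUP88 at 89.6 and 82.0 FPKM. RANBP2, the giant filament protein with SUMO ligase activity, stood at 27.9 and 28.3 FPKM. RANBP2 has near-identical copies, the RGPD genes, and reads could be divided among them; the 7 RGPD genes in the table reached at most 8.59 FPKM. None of these 6 genes passed an unadjusted p of 0.05.

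The nuclear basket held values in opposite directions. NUP153, which tethers the basket and binds importins, stood at 51.6 FPKM in OE and at 74.7 in siRNA, 1.45-fold higher, with p = 0.00405 and q = 0.134 in the authors' deposited table. TPR, the coiled-coil filament of the basket and a partner of NUP153, stood at 125.9 and 85.4 FPKM. That is 1.47-fold lower in siRNA, the lowest ratio among the 46 tested members, yet with p = 0.130 in the authors' deposited table. NUP50, a cofactor of importin-mediated cargo release, stood at 57.0 and 64.4 FPKM. The median change of the 3 basket genes was 0.17, with 2 higher and 1 lower, and their summed level, lower in siRNA through TPR, was 234 FPKM in OE and 224 FPKM in siRNA.

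**Figure D3:**
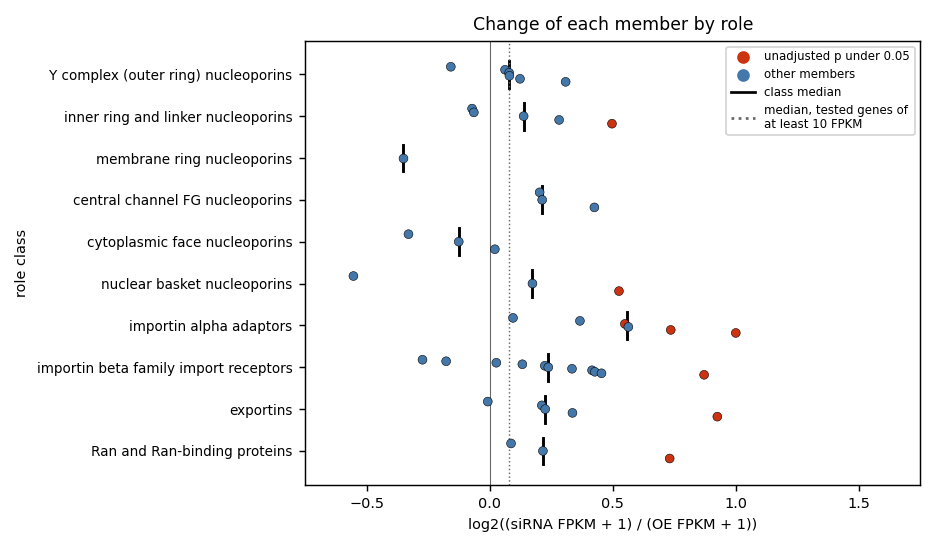
Change of each of the 46 tested members on the log2(FPKM + 1) scale (horizontal axis) by role class (vertical axis). Red points have an unadjusted p under 0.05 in the authors' deposited table, black bars are class medians and the dotted line is the median of tested genes averaging 10 FPKM or more; the importin alpha adaptors have the highest class median, 0.56.

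The importin alpha adaptors had the highest median of the role classes, 0.56 over 6 tested genes, and all 6 had a higher value in siRNA. Summed over the 6 genes, the level was 359 FPKM in OE and 518 in siRNA, a ratio of 1.44. KPNA3, which carries among others NF-kB subunits, stood at 20.1 FPKM in OE and at 41.2 in siRNA (ENSG00000102753, chromosome 13, 50273447 to 50367057, hg19). Its 2.05-fold ratio was the largest among the members, with p = 0.00075 and q = 0.0526 in the authors' deposited table, just past the threshold. KPNA5 (chromosome 6, 117002350 to 117063029), the least abundant tested adaptor, stood at 11.4 and 19.7 FPKM, 1.72-fold higher, with p = 0.0008 and q = 0.0550 in the authors' deposited table. KPNA1 stood at 29.8 and 44.1 FPKM, 1.48-fold higher, with p = 0.0460 in the authors' deposited table.

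KPNA2, the adaptor typical of proliferating cells, was by far the most abundant, at 208 and 307 FPKM. Its ratio of 1.48 equals that of KPNA1, but its p in the authors' deposited table was 0.0843. KPNA2 made up 57.8% of the summed adaptor FPKM in OE and 59.3% in siRNA. KPNA3 went from 5.59% to 7.94% of that sum and KPNA6 from 13.7% to 10.2%. KPNA4, the closest relative of KPNA3, stood at 40.9 and 53.0 FPKM, and KPNA6, related to KPNA1 and KPNA5, at 49.4 and 52.8 FPKM, neither with an unadjusted p under 0.05. The adaptor of oocytes and early embryos, KPNA7, was near 0 at 0.0337 and 0.0294 FPKM. A second KPNA2 entry on a patch sequence had 0 listed under either heading and was left out by the rule on chromosomes.

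The import receptors of the importin beta family matched here had a median of 0.24 over 11 tested genes, 9 higher and 2 lower in siRNA. TNPO1 has a locus shared with 3 other genes (chromosome 5, 72090232 to 72212560). This transportin, which imports hnRNP proteins through PY signals, stood at 133 FPKM in OE and at 244 in siRNA. This 1.84-fold ratio had p = 0.0230 and q = 0.315 in the authors' deposited table. Its paralog TNPO2 stood at 87.0 and 117 FPKM, and TNPO3, the import receptor of SR splicing factors, at 44.4 and 45.3 FPKM. The 3 transportins therefore ranged from a ratio of 1.84 to one of 1.02.

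Importin beta itself, KPNB1, was the most abundant of these 11 receptors in siRNA at 304 FPKM, against 241 FPKM in OE. IPO5 and IPO7, which import ribosomal proteins and histones among other cargo, stood at 246 and 288 FPKM and at 136 and 187 FPKM. IPO8, the paralog of IPO7, stood at 46.8 and 55.3 FPKM, and IPO11 at 39.3 and 52.7 FPKM. IPO9, an importin of histones H2A and H2B, stood at 57.6 and 50.9 FPKM, and IPO4, which imports histones H3 and H4, at 22.98 and 18.9 FPKM. IPO9 and IPO4 were the only ones of these 11 receptors with a lower value in siRNA. IPO13, which carries cargo in both directions, stood at 16.3 and 17.995 FPKM. Apart from TNPO1 none of these 11 receptors had an unadjusted p under 0.05.

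Exportins ranged from very abundant to scarce. XPO1, the general exportin for leucine-rich export signals, stood at 261 and 305 FPKM, and CSE1L, which returns importin alpha to the cytoplasm, at 187 and 217 FPKM. XPO6, the exportin of actin, stood at 180 and 227 FPKM, and XPO7, a receptor with broad cargo, at 76.6 and 76.2 FPKM, a difference that turns to the higher side when the conditions are rescaled to the same total. The least abundant of them, XPO4 (chromosome 13, 21351469 to 21477187), stood apart from these 4, at 14.3 FPKM in OE and at 28.0 in siRNA. The ratio of 1.96 had p = 0.00410 and q = 0.134 in the authors' deposited table.

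RAN (chromosome 12, 131356424 to 131362223), the GTPase itself, was the most abundant of all members, at 418 FPKM in OE and at 695 in siRNA. It was 1.66-fold higher, with p = 0.00235 and q = 0.1002 in the authors' deposited table. RAN has processed pseudogenes that could take some of its reads; the 9 RANP entries reached at most 4.71 FPKM. RANBP1, which helps GTP hydrolysis on Ran in the cytoplasm, stood at 273 and 290 FPKM. RANBP3, a cofactor of XPO1, stood at 67.1 and 78.1 FPKM. The ratio of RAN was thus not shared by its binding proteins, at 1.06 and 1.16, although the differences between these ratios were not tested.

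Base content moved with these values. The longest annotated coding transcript of the members (GENCODE 29) had a median GC content of 43.5%, against 47.1% for the 8068 coding genes, and ranged from 34.4% in KPNA5 to 59.4% in IPO4. Over the 46 members the Spearman rank correlation between GC content and change was -0.47, and over the 8068 coding genes it was -0.49; genes share the same pooled libraries and are not replicates. All 8 members with an unadjusted p under 0.05 were among the 30 with a GC content below 47.1%, 26.7% of those. Coding genes on the same side of that value passed higher in 13.4% of cases, and those above it in 3.05%. Of the 30, 26 had a higher value in siRNA (86.7%, against 78.5% of such coding genes). Of the 16 members at or above it, 10 did (62.5%, against 43.6%).

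The median change of coding genes in the same GC decile was then subtracted, with deciles taken over 12975 tested coding genes averaging 1 FPKM or more. The median of the members became 0.07, and 30 of 46 lay above the median of their own decile. This set reaches below the 10 FPKM that all tested members exceed, and the part of expression level in these 2 figures was not tested. KPNA3 then stood at 0.79, XPO4 at 0.65, TNPO1 at 0.60, RAN at 0.57, TNPO2 at 0.54 and KPNA2 at 0.50. TPR, at 40.1% GC, stood at -0.77, the farthest below its decile of the 46. Next below were NUP214 at -0.35, NUP133 at -0.29, IPO9 at -0.24 and NUP210, with 58.3% GC, at -0.24. IPO4 was at -0.11. By role, the rank correlation with GC content was -0.63 over the 22 receptors and -0.23 over the 21 nucleoporins. The part of base content in the members' values was not tested beyond these figures.

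**Figure D4:**
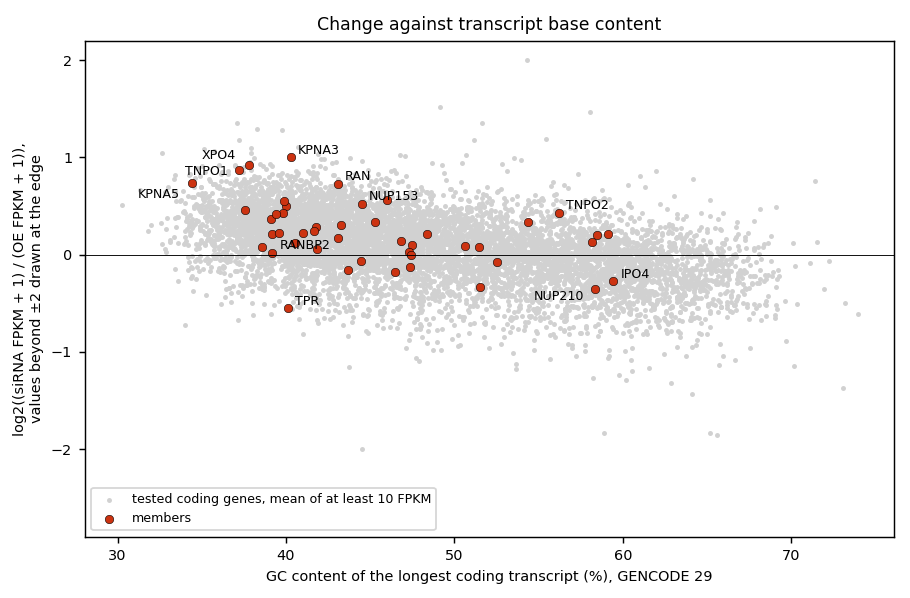
GC content of the longest coding transcript (horizontal axis, percent) against change on the log2(FPKM + 1) scale (vertical axis) for 8068 coding genes averaging 10 FPKM or more (grey) and the 46 tested members (red). Change fell with GC content in both sets (rank correlation -0.47 over the members and -0.49 over the coding genes). Against the median of their own GC decile, 30 of the 46 members lay above, KPNA3 farthest above and TPR farthest below.

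The letters GGAG, a G-rich core, were counted in each coding sequence because CNBP binds G-rich RNA. The members held a median of 6.605 per kilobase, from 2.75 in CSE1L to 12.9 in RANBP3, and the coding genes 7.73. The Spearman rank correlation between GGAG per kilobase and change was -0.32 over the members and -0.33 over the coding genes. By role it was -0.36 over the 22 receptors and 0.18 over the 21 nucleoporins. GGAG density itself went with GC content, with a rank correlation of 0.68 over the members. KPNA3, with the highest ratio, held 5.76 per kilobase, RAN 4.63, and TPR, with the lowest ratio, 6.91. The part of GGAG density in the members' values was not tested.

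Position in the genome was also compared. KPNA3, XPO4 and IPO5 lie on chromosome 13, where the median change of 197 tested genes averaging 10 FPKM or more was 0.25, the highest of the 23 chromosomes considered; IPO5 was at 0.22. Loci in the table can bundle neighbouring genes, and 29 of the 48 members shared their locus with another gene, 26 of them with a tested gene of at least 1 FPKM. How the counting treated strand is not stated in the labels, so overlapping and antisense genes could share reads with members such as IPO9 (IPO9-AS1), NUP88, IPO4 and RANBP1. KPNA3, KPNA5, XPO4, RAN and NUP35 had a locus of their own. NUP153, TNPO1 and KPNA1 did not.

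Other genes of the pathway, from a list that leaves out the members, gave no call either. Of 48 listed symbols 46 had an entry and 45 were tested, and none had a q-value under 0.05 in the authors' deposited table (0 of 45, against 1.35% of all tested genes). At an unadjusted p under 0.05, 2 stood higher and 2 lower, 4.44% each way, near the background. NUPL1, the channel partner of NUP54 and NUP62, stood at 41.2 and 59.0 FPKM, with p = 0.0274 in the authors' deposited table. GLE1, the mRNA export factor at the cytoplasmic face, stood at 19.4 and 13.7 FPKM, with p = 0.0179 in the authors' deposited table.

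DDX39A, an mRNA export helicase, stood at 134 and 92.5 FPKM, with p = 0.00810 in the authors' deposited table. The 12 further nucleoporins tested had a median change of 0.18, the 14 Ran cycle and other transport genes 0.23 and the 19 mRNA export factors 0.09. These medians lie between those of the member nucleoporins and the member receptors.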

How the data were processed

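The authors deposited 1 Cuffdiff table with an FPKM per gene and condition, and a p-value and q-value from their comparison. TopHat, Cufflinks and Cuffdiff were run on hg19, per the submitters' processing notes; the sources used here give no version, setting or annotation. Members were matched by symbol; members, role classes and the pathway list were chosen with earlier results of these data known. A gene was called at status OK and q under 0.05 over all tested genes. Changes are log2((siRNA + 1)/(OE + 1)) and understate low genes. All members are named; of the pathway list, those with an unadjusted p under 0.05, except 1 gene that is counted but not reported here. Locus starts count from 0, so 1 was added, which matched 28 of 28 mitochondrial genes with a locus of their own. GENCODE 29, joined by gene ID, gave base content (46 of 46 tested members). Promoters are RefSeq's (GRCh38.p14). The median calculation was tested on simulated data. No value per sample was used, since the table has none. Python 3.11.15, numpy 2.4.6, pandas 2.3.3 and matplotlib 3.10.9 were used.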

Additional observations from a re-analysis of the deposited data

How the results depend on the processing

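A looser threshold admits more genes by its construction. With q-values under 0.1, 2 members were called higher (KPNA3 and KPNA5) and 0 lower, and at an unadjusted p under 0.05, 8 and 0. Of the pathway list 1 gene was called at a q-value under 0.1 and 4 passed an unadjusted p under 0.05. The recomputed Benjamini-Hochberg adjustment left all 3 counts at 0; a stricter threshold or a further filter can only do so. The median member change of 0.21 was 0.205 with a pseudocount of 5 and 0.29 when both conditions were rescaled to a total of 1000000 over loci longer than 300 bp. It was 0.072 less the GC decile medians, and 0.175 over the 20 tested members whose locus holds no other tested gene of at least 1 FPKM, an alternative chosen after seeing the data. Rescaling also turned NUP188 to 0.0075, NUP205 to 0.0151 and XPO7 to 0.0706; the other 43 tested members kept their direction there. A pseudocount cannot change a direction, and the median ratio was 0.9996, so those settings do not test it. CNBP stayed between -3.53 and -3.67. No paired analysis was possible because only pooled values per condition were given, and leaving out a replicate was not run for the same reason. Depth per sample is unknown.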
